A study of Homo sapiens with 8 samples.

Results

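The 91 probes described here were lower in the TRAIL-resistant Jurkat clone TR1 than in the parental Jurkat cells (WT) and higher again when TR1 was given SAHA. They were chosen from the 22184 probes of an Illumina HumanRef-8 BeadChip by their measured values: a detection p-value below 0.01 on both WT arrays, a mean log2 signal at least 0.5 lower in untreated TR1 than in WT, a mean at least 0.4 higher at 1 µM SAHA than in untreated TR1, and both untreated TR1 arrays below both arrays of each of the other 2 groups. Of the 91 probes, 85 carried a gene symbol and stood for 83 of the 16577 genes named on the array, since MSMO1 and LY9 had 2 probes each, and 6 had no symbol. The differences between untreated TR1 and WT and between 1 µM SAHA and untreated TR1 made the choice, so they are given as description only.

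TR1 was a Jurkat subclone raised under 1000 ng/mL TRAIL for 12 weeks, and as it is 1 clone, what belongs to resistance and what belongs to the clone cannot be told apart. The groups were untreated TR1, TR1 with 0.5 µM SAHA for 12 h, TR1 with 1 µM SAHA for 12 h, and untreated WT, with 2 arrays each that the labels call biological duplicates. No WT cells with SAHA were among the 8 arrays. Levels are log2 signals after background correction and quantile normalization, on which a difference of 1 is a doubling.

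Jurkat is a line from a human T cell leukaemia. TRAIL is a death ligand related to tumour necrosis factor; it binds death receptors on the cell surface, which recruit the adaptor FADD and caspase-8 and start apoptosis. SAHA (vorinostat) blocks the zinc-dependent histone deacetylases, enzymes that take acetyl groups off histones and other proteins, and is used against cutaneous T cell lymphoma.

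The median raw signal was 95.6 on TR1 array A and 77.6 on TR1 array B without drug, 101 and 102 at 0.5 µM, 103 and 115 at 1 µM, and 103 and 99.1 in WT, so the untreated TR1 arrays were the dimmest before normalization. The WT duplicates differed more over the 91 probes than over the array: 20 of the 91 (22%) differed by more than 0.5 between WT array A and WT array B, against 5.72% of the 13407 probes kept by the filter, and array B was the higher in 18 of those 20. In each of the other groups 2 of the 91 differed that much. T lineage markers were present: 13 of 16 probes were kept and 12 of them were detected on both untreated TR1 arrays, with a summed linear signal of 23720 to 23860 in untreated TR1, 19040 to 19810 at 0.5 µM, 14880 to 16340 at 1 µM and 20580 to 21250 in WT. The 9 kept of 17 NK and cytotoxic marker probes summed to 6270 to 6578 in untreated TR1, 9137 to 9530 at 0.5 µM, 7048 to 7243 at 1 µM and 1779 to 2261 in WT, with 1 probe called higher and 1 lower in untreated TR1 than in WT. The 5 kept of 11 B cell marker probes summed to 995.1 to 1082 in untreated TR1, 753.9 to 777.9 at 0.5 µM, 585.8 to 605.8 at 1 µM and 757.3 to 997.2 in WT. The 6 kept of 16 epithelial and stromal marker probes summed to 1428 to 1511 in untreated TR1, 1802 to 1822 at 0.5 µM, 1712 to 1775 at 1 µM and 985.8 to 1071 in WT. None of these probes was among the 91. In RNA from a whole culture, fewer cells of a kind and less RNA per cell cannot be told apart. The part of array brightness, of the WT duplicates and of these markers in the results was not tested.

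All 91 probes passed the filter on dim probes, as detection on both WT arrays made them do. On the fitted scale the difference between untreated TR1 and WT had a median of -0.90 over the 91 probes (range -2.38 to -0.54), against a median difference of -0.01 over all probes kept. In the limma fit 83 of them were called lower in untreated TR1 (adjusted p below 0.05), where 3.71% of all probes were called lower; without WT array A 79 were called, without WT array B 62, without TR1 array A 42 and without TR1 array B 45. At 1 µM SAHA 87 were called higher than in untreated TR1, where 12.6% of all probes were called higher, with a median difference of 0.91. The 8 probes not called lower in untreated TR1 were those of RAB20, THEMIS, FAM162A, SEPTIN11, UQCRH and DDIT4 and both of LY9. The 4 not called at 1 µM were those of ID1, FAM162A, SEPTIN11 and UQCRH. Both contrasts chose the members, so nothing is read from these counts. The member probes stood at a median of 7.45 in untreated TR1, 8.16 at 0.5 µM, 8.59 at 1 µM and 8.43 in WT, while the median over all probes kept was 7.67 in each group. The heatmap of the member probes gives the level on each array.

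**Figure D1:**
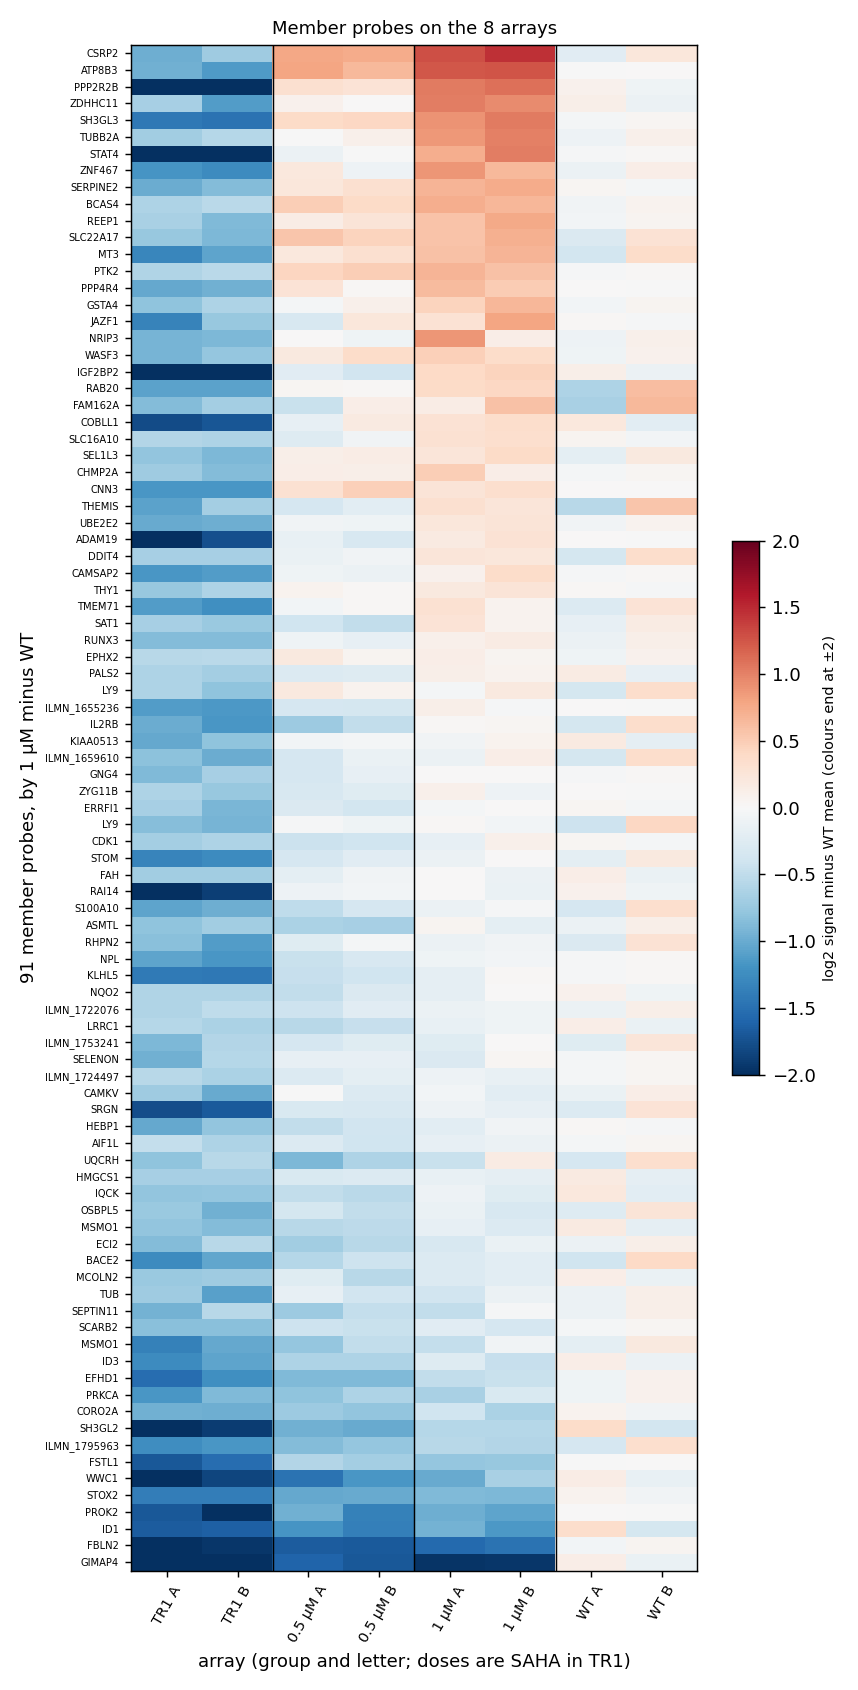
Level of the 91 member probes (rows, ordered by the difference between 1 µM SAHA and WT) on the 8 arrays (columns: untreated TR1, TR1 with 0.5 µM SAHA, TR1 with 1 µM SAHA, WT), as the log2 signal minus the mean of the 2 WT arrays, blue lower and red higher. The untreated TR1 columns are blue in every row, as the choice requires; at 1 µM the top rows, led by CSRP2 and ATP8B3, are red, and the bottom rows, with GIMAP4, FBLN2 and ID1, are still blue.

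The 0.5 µM arrays had no part in choosing the probes. At this dose 52 of the 91 (57.1%) rose against untreated TR1 in limma (adjusted p below 0.05) and 0 fell, where 4.42% of all probes were called higher and 2.78% lower. The median difference was 0.69, against -0.01 over all probes kept, and the range was -0.08 to 2.41. Both 0.5 µM arrays lay above both untreated TR1 arrays for 88 of the 91, where 27.1% of all probes had that order. The untreated TR1 arrays had been chosen to be low, so the side shared with the choice is not independent. Part of the 52 lost the call when 1 untreated TR1 or 0.5 µM array was left out, which leaves 1 array in that group. The number of calls over all probes fell in the same fits. The drops here and in the role groups below are thus no trait of the members alone. The 4.42% belongs to the fit on all 8 arrays.

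Choosing the probes again with only 1 untreated TR1 array and reading the array that was left out gave a level that the choice had not used. The WT arrays, the 1 µM arrays and the other untreated TR1 array still made that choice, and all probes kept had no such limits to meet. The order against the WT arrays is therefore in part set by the choice, and the 0.5 µM arrays alone were outside it. Without TR1 array A, 95 probes met the limits, and array A was below both 0.5 µM arrays for 93 of them (97.9%) and below both WT arrays for 92 (96.8%), against 37.5% and 38.5% of all probes kept. Without TR1 array B, the dimmer one, 111 probes met the limits, and array B was below both 0.5 µM arrays for 95 (85.6%) and below both WT arrays for 105 (94.6%), against 38% and 36.5%. The median difference between the 0.5 µM mean and the left-out array was 0.51 for array A and 0.39 for array B, on log2 signals normalized without background correction, and it was -0.01 over all probes kept for both arrays.

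**Figure D2:**
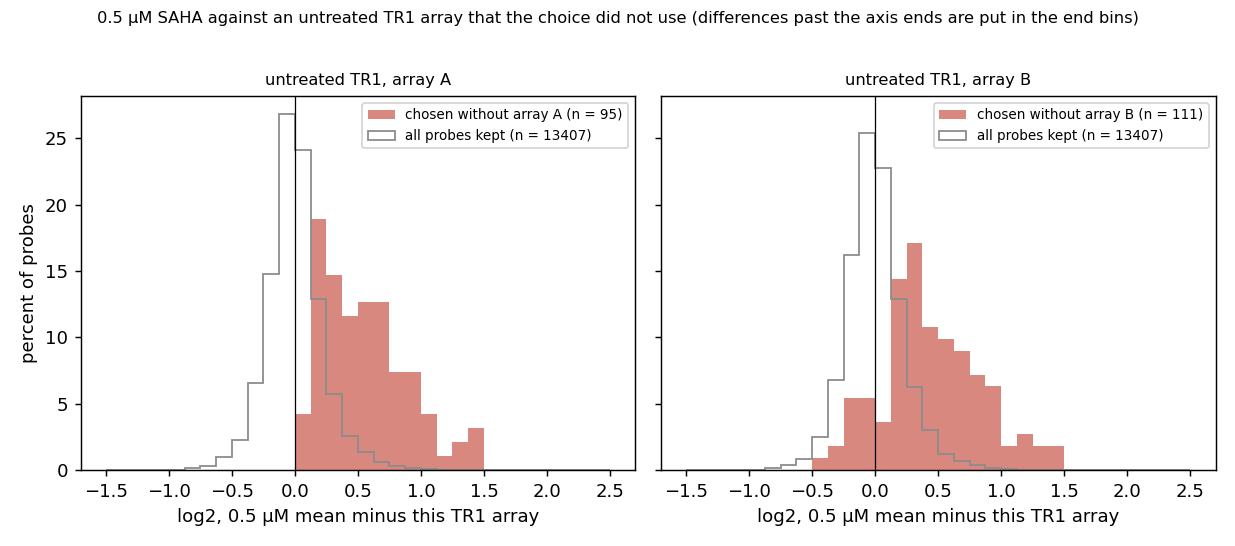
Difference between the mean at 0.5 µM SAHA and a single untreated TR1 array (log2; left panel array A, right panel array B), as percent of probes per bin, for the probes chosen without that array (filled, 95 and 111 probes) and for all 13407 probes kept (line). The filled bins lie mostly right of 0, with medians of 0.51 and 0.39, and the line is centred near 0.

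The transcription regulators among the members were STAT4, ID1, ID3, RUNX3, ZNF467 and JAZF1, and 5 of these 6 rose at 0.5 µM against untreated TR1, where 4.42% of all probes did. The 5 became 2 without either untreated TR1 array or either 0.5 µM array, and 3 without either 1 µM array. STAT4, which carries signals from the IL-12 receptor to the nucleus, read 5.68 and 5.77 in untreated TR1, 7.76 and 7.86 at 0.5 µM, 8.59 and 8.90 at 1 µM, and 7.84 and 7.90 in WT. Its untreated TR1 arrays were the lowest, its 0.5 µM and WT arrays overlapped, and its 1 µM arrays were above all others. It was 4.24-fold higher at 0.5 µM than in untreated TR1 (limma adjusted p = 0.00031) and 1.83-fold higher at 1 µM than in WT (adjusted p = 0.00131).

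RUNX3, a runt-domain factor that shapes the CD8 T cell lineage, read 9.86 and 9.85 in untreated TR1, 10.64 and 10.55 at 0.5 µM, 10.82 and 10.89 at 1 µM, and 10.60 and 10.84 in WT. All arrays with SAHA and both WT arrays were above the untreated TR1 arrays, and the arrays with SAHA fell around those of WT. It was 1.67-fold higher at 0.5 µM than in untreated TR1 (limma adjusted p = 0.00818), a call that was lost without TR1 array A, TR1 array B, 0.5 µM array A or 0.5 µM array B (adjusted p up to 0.0726). The zinc finger protein ZNF467 read 5.42 and 5.34 in untreated TR1, 6.81 and 6.51 at 0.5 µM, 7.49 and 7.26 at 1 µM, and 6.48 and 6.73 in WT. It was 2.44-fold higher at 0.5 µM than in untreated TR1 (adjusted p = 0.00284) and 1.71-fold higher at 1 µM than in WT (adjusted p = 0.00472).

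ID1 and ID3 are inhibitors of the E protein family, helix-loop-helix factors that drive T cell development. ID1 read 8.09 and 8.12 in untreated TR1, 8.57 and 8.39 at 0.5 µM, 8.81 and 8.60 at 1 µM, and 10.10 and 9.41 in WT. Every array of TR1, with or without SAHA, was below both WT arrays. ID1 was 2.08-fold lower at 1 µM than in WT (limma adjusted p = 0.00524), and at 0.5 µM it differed from untreated TR1 by 0.37 (95% interval -0.10 to 0.84; adjusted p = 0.309). A second, dim probe of ID1, described with the other probes of the member genes, was called above WT at 1 µM. ID3 read 11.21 and 11.41 in untreated TR1, 11.84 and 11.84 at 0.5 µM, 12.21 and 12.01 at 1 µM, and 12.59 and 12.34 in WT, so its 4 groups did not overlap. At 0.5 µM it was 1.45-fold higher than in untreated TR1 (adjusted p = 0.0466) and 1.54-fold lower than in WT (adjusted p = 0.0122). The first call was lost when any 1 array of TR1, with or without SAHA, was left out (adjusted p up to 0.218), and the second without WT array A or either 0.5 µM array (up to 0.0664). At 1 µM ID3 differed from WT by -0.35 (95% interval -0.65 to -0.06; adjusted p = 0.0652).

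The immune genes were GIMAP4, THEMIS, LY9, IL2RB, THY1 and SRGN. GIMAP4 encodes a GTPase of lymphocytes and read 9.30 and 9.34 in untreated TR1, 10.10 and 10.01 at 0.5 µM, 9.75 and 9.76 at 1 µM, and 11.84 and 11.57 in WT. Both doses were above untreated TR1 and far below WT, and the 0.5 µM arrays were above the 1 µM arrays. At 1 µM it was 3.86-fold lower than in WT (limma adjusted p = 4.57e-05), the largest shortfall among the 91 probes. The difference between the doses was -0.30 (95% interval -0.57 to -0.04) and was not called (adjusted p = 0.26). Its 1.67-fold rise at 0.5 µM (adjusted p = 0.00936) was lost without TR1 array A, TR1 array B, 0.5 µM array A or 0.5 µM array B (adjusted p up to 0.0796).

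THEMIS, an adaptor of T cell receptor signalling needed in thymocytes, read 9.06 and 9.44 in untreated TR1, 9.79 and 9.91 at 0.5 µM, 10.45 and 10.37 at 1 µM, and 9.57 and 10.68 in WT. Its WT arrays lay 1 on each side of the arrays with SAHA, and it was not called at 0.5 µM against untreated TR1 (difference 0.60, limma adjusted p = 0.272). IL2RB, the beta chain of the IL-2 and IL-15 receptors, read 5.43 and 5.27 in untreated TR1, 5.71 and 5.94 at 0.5 µM, 6.45 and 6.47 at 1 µM, and 6.08 and 6.78 in WT. Its 1 µM arrays fell between the WT arrays, and at 0.5 µM it was not called against untreated TR1 (difference 0.48, adjusted p = 0.206). Counted by probe, 4 of the 7 immune probes rose at 0.5 µM (4.42% of all probes did), which became 1 without TR1 array A or 0.5 µM array A and 2 without the array B of either group. At 1 µM 0 of the 7 were called above WT (17.1% of all probes were) and 1, GIMAP4, below it (17.2% were); without WT array B 2 were above, and without WT array A 3 were below.

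Among the signalling genes, PPP2R2B, a regulatory B subunit of protein phosphatase 2A, had the largest difference at 0.5 µM. It read 4.69 and 4.72 in untreated TR1, where neither array detected it, 7.14 and 7.10 at 0.5 µM, 7.86 and 7.92 at 1 µM, and 6.91 and 6.74 in WT. The 4 groups did not overlap, and both doses were above WT. The level at 0.5 µM was at least 3.84-fold that in untreated TR1 (limma adjusted p = 8.7e-05), set against the lowest detected signal, and the untreated TR1 level was at least 3.13-fold lower than in WT. At 1 µM it was 2.09-fold higher than in WT (adjusted p = 0.000228).

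WWC1 (KIBRA), a scaffold of the Hippo pathway, read 6.21 and 6.36 in untreated TR1, 6.72 and 7.03 at 0.5 µM, 7.19 and 7.54 at 1 µM, and 8.35 and 8.04 in WT. The groups stood in dose order without overlap and ended below WT, by 1.78-fold at 1 µM (limma adjusted p = 0.00682). At 0.5 µM it differed from untreated TR1 by 0.59 (adjusted p = 0.0768). CDK1, the kinase that drives entry into mitosis, read 7.82 and 7.87 in untreated TR1, 8.06 and 8.10 at 0.5 µM, 8.33 and 8.59 at 1 µM, and 8.54 and 8.45 in WT, with the 1 µM and WT arrays overlapping. A second, brighter probe of CDK1, described with the other probes of the member genes, was above WT at 1 µM. DDIT4, an inhibitor of mTORC1 that stress induces, read 10.67 and 10.67 in untreated TR1, 11.20 and 11.27 at 0.5 µM, 11.58 and 11.56 at 1 µM, and 10.99 and 11.68 in WT. Neither was called at 0.5 µM against untreated TR1 (limma adjusted p = 0.242 for CDK1 and 0.125 for DDIT4). Of the 9 signalling probes 5 rose at 0.5 µM (4.42% of all probes did), which became 3 when any 1 of the 6 arrays of TR1, with or without SAHA, was left out. At 1 µM 3 of the 9 were called above WT (17.1% of all probes were) and 2 below it (17.2% were), and the 2 became 1 without either WT array, either 0.5 µM array or 1 µM array A.

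The group of cytoskeleton, vesicle and membrane genes was the largest with a role, with 20 probes, of which 13 rose at 0.5 µM (4.42% of all probes did), or 8 without 0.5 µM array B. Roles were given to member genes only, so no share of all probes can be set beside the 20. On the list of actin and tubulin cytoskeleton, 1 of 36 kept probes was a member, and on that of adhesion and migration 0 of 32. At 1 µM 6 of the 20 were above WT (17.1% of all probes were) and 1 was below it (17.2% were), and the 1 became 0 without WT array A or 1 µM array B and 2 without WT array B. TUBB2A, a beta-tubulin, read 9.10 and 9.22 in untreated TR1, 9.79 and 9.89 at 0.5 µM, 10.66 and 10.80 at 1 µM, and 9.70 and 9.89 in WT. The 0.5 µM arrays lay at the WT level and the 1 µM arrays above it. It was 1.61-fold higher at 0.5 µM than in untreated TR1 (limma adjusted p = 0.0113; up to 0.0909 and not called without either untreated TR1 array or either 0.5 µM array) and 1.91-fold higher at 1 µM than in WT (adjusted p = 0.000654). CSRP2, a LIM-domain protein that binds actin, read 6.36 and 6.63 in untreated TR1, 8.12 and 8.08 at 0.5 µM, 8.63 and 8.80 at 1 µM, and 7.11 and 7.57 in WT. Both doses were above all WT arrays, and its excess over WT at 1 µM, 2.59-fold (adjusted p = 0.000651), was the largest of the 91. At 0.5 µM it was 1.70-fold above WT (adjusted p = 0.0146), which was not called without WT array A or either 0.5 µM array (up to 0.0771).

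SH3GL3 and SH3GL2 encode endophilins, proteins that bend membranes during endocytosis. SH3GL3 read 6.87 and 6.82 in untreated TR1, 8.68 and 8.71 at 0.5 µM, 9.19 and 9.33 at 1 µM, and 8.26 and 8.33 in WT, without overlap. It was 3.61-fold higher at 0.5 µM than in untreated TR1 (limma adjusted p = 0.00031) and 1.95-fold higher at 1 µM than in WT (adjusted p = 0.000315). SH3GL2 read 5.72 and 6.34 in untreated TR1, 7.27 and 7.22 at 0.5 µM, 7.67 and 7.67 at 1 µM, and 8.60 and 7.87 in WT. Its arrays with SAHA stayed below both WT arrays, and the shortfall of 0.57 at 1 µM was not called (95% interval -1.15 to 0.01; adjusted p = 0.12). Its 2.32-fold rise at 0.5 µM (adjusted p = 0.0277) was not called without TR1 array A, 0.5 µM array A, 0.5 µM array B or 1 µM array A (up to 0.138).

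ATP8B3, a phospholipid-flipping ATPase, read 5.82 and 5.64 in untreated TR1, 7.57 and 7.42 at 0.5 µM, 8.01 and 8.04 at 1 µM, and 6.76 and 6.79 in WT. It exceeded WT already at 0.5 µM, by 1.65-fold (limma adjusted p = 0.00328), and by 2.38-fold at 1 µM (adjusted p = 0.000151). RAI14, an actin-binding ankyrin-repeat protein, read 5.64 and 5.90 in untreated TR1, 7.69 and 7.73 at 0.5 µM, 7.80 and 7.65 at 1 µM, and 7.87 and 7.70 in WT. Its arrays with SAHA and WT overlapped at both doses, with a difference between the doses of 0.02 (95% interval -0.26 to 0.30) and a 3.84-fold rise at 0.5 µM (adjusted p = 0.00031).

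Among the genes of secreted and shed proteins, those that ended below WT were FBLN2, PROK2 and FSTL1. FBLN2, an extracellular matrix fibulin, read 9.08 and 9.17 in untreated TR1, 9.45 and 9.43 at 0.5 µM, 9.56 and 9.63 at 1 µM, and 11.05 and 11.17 in WT. Most of its gap to WT was still there at 1 µM, a 2.86-fold shortfall (limma adjusted p = 6.02e-05). PROK2, the secreted ligand prokineticin-2, read 5.74 and 5.41 in untreated TR1, 6.48 and 6.09 at 0.5 µM, 6.47 and 6.39 at 1 µM, and 7.45 and 7.43 in WT. The doses overlapped with each other and not with WT, from which 1 µM differed by 2.01-fold (adjusted p = 0.00192). Its rise at 0.5 µM (1.64-fold, adjusted p = 0.0325) was not called without TR1 array A, TR1 array B, 0.5 µM array A or either 1 µM array (up to 0.186). ADAM19, a membrane-bound metalloprotease that sheds other proteins, read 4.95 and 5.22 in untreated TR1, where 1 of 2 arrays detected it, 6.83 and 6.66 at 0.5 µM, 7.17 and 7.27 at 1 µM, and 7.0 and 6.97 in WT. It was 3.15-fold higher at 0.5 µM than in untreated TR1 (adjusted p = 0.000613) and differed from WT by 0.24 at 1 µM (95% interval -0.05 to 0.52).

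The 12 probes of metabolic genes had a median difference of 0.40 at 0.5 µM from untreated TR1, and 5 of them rose (4.42% of all probes did). The 5 became 1 without TR1 array A or 0.5 µM array A and 0 without the array B of either group. HMGCS1, which makes HMG-CoA for cholesterol synthesis, read 12.06 and 12.06 in untreated TR1, 12.41 and 12.44 at 0.5 µM, 12.57 and 12.54 at 1 µM, and 12.90 and 12.54 in WT. At 0.5 µM it differed from untreated TR1 by 0.37 and was not called (limma adjusted p = 0.121). SAT1, the acetyltransferase that starts polyamine breakdown, read 8.48 and 8.41 in untreated TR1, 8.75 and 8.66 at 0.5 µM, 9.42 and 9.21 at 1 µM, and 8.98 and 9.31 in WT. Its arrays at 0.5 µM were below both WT arrays and its arrays at 1 µM overlapped WT. ECI2, an isomerase of fatty acid oxidation, read 10.41 and 10.72 in untreated TR1, 10.58 and 10.72 at 0.5 µM, 10.95 and 11.13 at 1 µM, and 11.15 and 11.39 in WT. UQCRH, a subunit of respiratory complex III, read 7.85 and 8.10 in untreated TR1, 7.75 and 8.04 at 0.5 µM, 8.20 and 8.81 at 1 µM, and 8.32 and 8.98 in WT. In both genes the 0.5 µM and untreated TR1 arrays overlapped, and UQCRH was the only probe of the 91 whose 0.5 µM mean was below that of untreated TR1.

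Of the remaining named members, IGF2BP2, an RNA-binding protein of the insulin-like growth factor 2 mRNA, read 5.27 and 5.06 in untreated TR1, where 1 of 2 arrays detected it, 7.2 and 7.04 at 0.5 µM, 7.82 and 7.86 at 1 µM, and 7.53 and 7.31 in WT. It was 3.88-fold higher at 0.5 µM than in untreated TR1 (limma adjusted p = 0.00031), and 1.34-fold higher at 1 µM than in WT (adjusted p = 0.0289), which was not called without WT array B or either 1 µM array (up to 0.126). COBLL1, related to the actin nucleator cordon-bleu, read 5.0 and 5.09 in untreated TR1, where neither array detected it, 6.63 and 6.97 at 0.5 µM, 7.08 and 7.14 at 1 µM, and 7.0 and 6.59 in WT. Its 0.5 µM level exceeded that of untreated TR1 at least 3.08-fold (adjusted p = 0.00138), and the arrays with SAHA overlapped those of WT at 0.5 µM and lay above them at 1 µM. STOX2 read 4.42 and 4.42 in untreated TR1, 4.79 and 4.81 at 0.5 µM, 4.93 and 4.91 at 1 µM, and 5.88 and 5.74 in WT. It was detected only in WT, so its signals in TR1 lie below detection and are not measured levels. Set against the lowest detected signal, 1 µM was at least 1.63-fold lower than WT (adjusted p = 0.000411).

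MT3, a metallothionein that binds zinc and copper, read 5.05 and 5.30 in untreated TR1, where 1 of 2 arrays detected it, 6.57 and 6.68 at 0.5 µM, 6.94 and 7.03 at 1 µM, and 5.99 and 6.72 in WT. It was 2.72-fold higher at 0.5 µM than in untreated TR1 (limma adjusted p = 0.00755; up to 0.0603 and not called without TR1 array A or 0.5 µM array B). ZDHHC11, a protein palmitoyltransferase, read 6.94 and 6.49 in untreated TR1, 7.70 and 7.61 at 0.5 µM, 8.64 and 8.55 at 1 µM, and 7.73 and 7.49 in WT. Its 0.5 µM arrays lay between the WT arrays, and at 1 µM it was 1.98-fold above WT (adjusted p = 0.00221). Its 1.92-fold rise at 0.5 µM (adjusted p = 0.0121) was not called without TR1 array B or either 0.5 µM array (up to 0.089). ASMTL read 8.06 and 8.16 in untreated TR1, 8.22 and 8.19 at 0.5 µM, 8.91 and 8.66 at 1 µM, and 8.74 and 8.98 in WT, so its 0.5 µM arrays lay close to untreated TR1 and its 1 µM arrays overlapped WT.

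**Figure D3:**
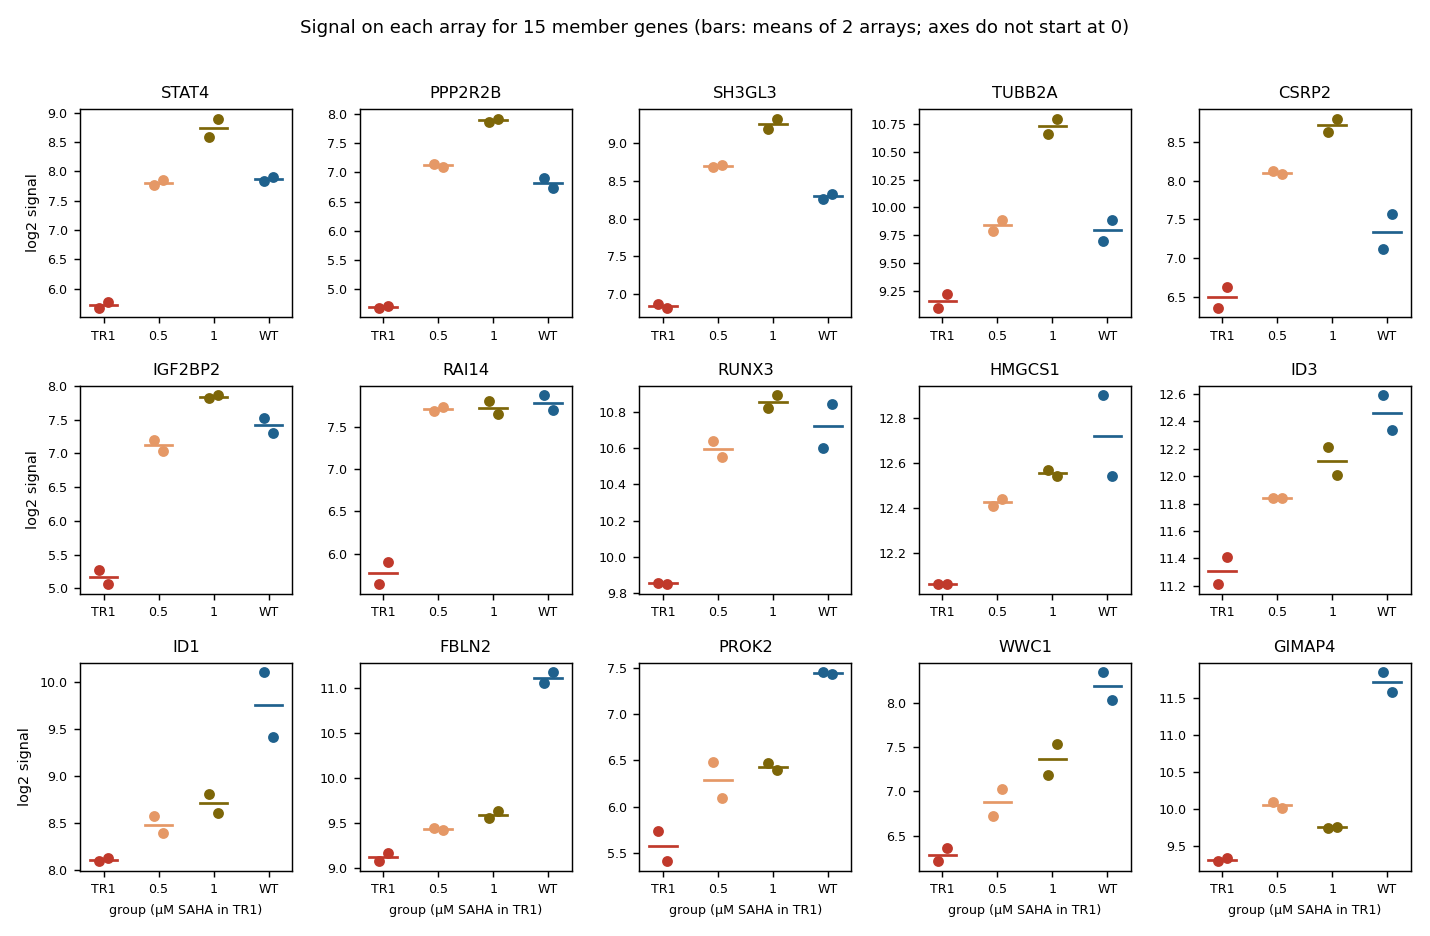
Log2 signal of 15 member genes on each array (points, 2 per group) with the mean of each group (bars), for untreated TR1, TR1 with 0.5 and 1 µM SAHA, and WT; the axes differ between panels and do not start at 0. In STAT4, PPP2R2B and CSRP2 the 1 µM points lie above WT, in RAI14 and RUNX3 among or next to the WT points, and in ID1, FBLN2, PROK2, WWC1 and GIMAP4 below them.

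Against WT, the members ended on both sides. The choice used the 1 µM and the WT arrays but not their difference. At 1 µM 18 of the 91 (19.8%) were called above WT in limma, where 17.1% of all probes were, and 11 (12.1%) were called below WT, where 17.2% of all probes were; the other 62 were not called. Both shares are near those over all probes. The median difference from WT was -0.01, against -0.03 over all probes kept, and the range was -1.95 to 1.37. Without WT array B 24 were called above and 13 below; without WT array A 15 and 12. A difference that missed the threshold does not show that a member was back at the WT level, and among the 62 are RAB20, FAM162A and THEMIS, whose WT arrays were more than 1 apart.

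The distance covered can be given as the share of the gap between the untreated TR1 mean and the WT mean. The median share was 73.3% at 0.5 µM and 98.6% at 1 µM. At 1 µM 44 members had a mean above the WT mean, 41 had covered 50 to 100% of the gap and 6 under 50%. As untreated TR1 was chosen low, and WT and 1 µM high, these shares describe the chosen probes. At 0.5 µM 6 were called above WT (11.5% of all probes were) and 25 below (10.7% of all probes were), with a median difference of -0.27. The 25 became 9 without 0.5 µM array A and 10 without array B, and the 6 became 1 without either of these and 2 without WT array A.

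**Figure D4:**
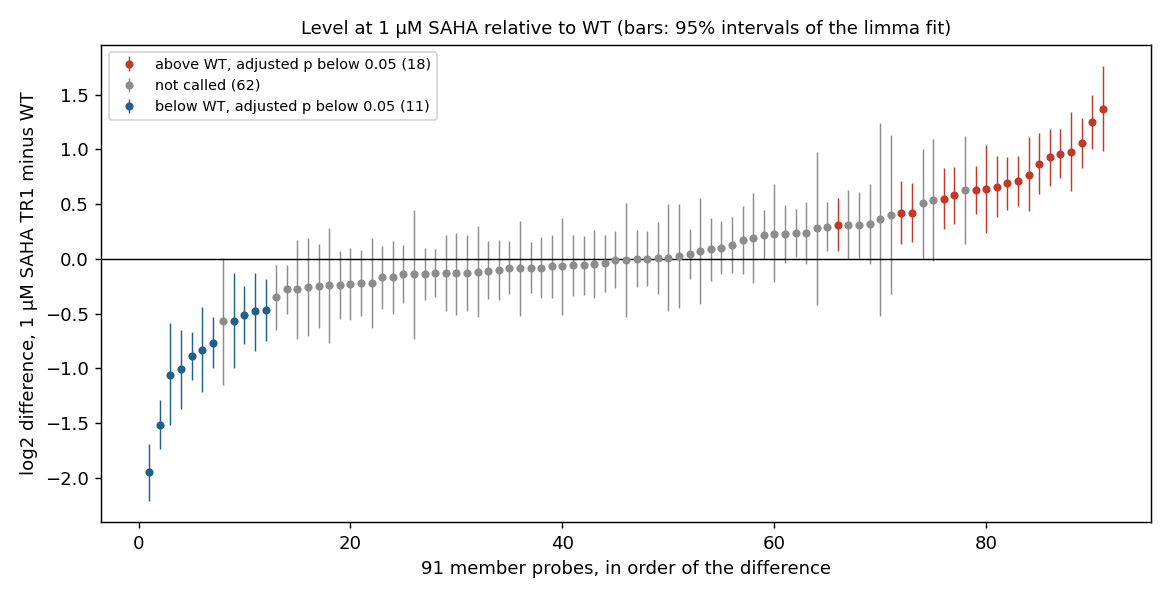
Difference between TR1 with 1 µM SAHA and WT (log2, vertical axis) for the 91 member probes in order of the difference, with 95% intervals of the limma fit. The 18 probes called above WT are red and reach 1.37, the 11 called below are blue and reach -1.95, and the 62 in grey were not called.

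All 18 probes called above WT at 1 µM had also been called at 0.5 µM against untreated TR1, and 3 of the 11 below WT had, as had 31 of the 62 that were not called. The same split over all probes kept was not counted. The 2 comparisons set different arrays against each other, but both come from the same fit over all arrays. That fit gave each probe the same standard error in both comparisons (0.1 for PTK2 and 0.32 for RAB20). A probe with a small spread is thus more readily called in both, and the overlap does not join separate evidence. The 1 µM, WT and untreated TR1 arrays also all made the choice. The 18 were IGF2BP2, STAT4, PPP2R2B, SH3GL3, ZNF467, ATP8B3, PPP4R4, SERPINE2, ZDHHC11, CSRP2, WASF3, SLC22A17, REEP1, GSTA4, TUBB2A, SLC16A10, BCAS4 and PTK2. The 11 were GIMAP4, FBLN2, WWC1, PROK2, ID1, FSTL1, STOX2, EFHD1, PRKCA, CORO2A and 1 probe with no symbol. When each array was left out in turn, 13 of the 18 and 7 of the 11 were called every time. Those that lost the call in at least 1 fit were IGF2BP2, WASF3, SLC22A17, GSTA4 and SLC16A10 above WT, and EFHD1, PRKCA, CORO2A and the probe with no symbol below it; their highest adjusted p ranged from 0.0583 for GSTA4 to 0.224 for PRKCA.

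Between the doses, the 0.5 µM mean lay between untreated TR1 and 1 µM for 85 of the 91, above 1 µM for 5 and below untreated TR1 for 1. Both 1 µM arrays were above both 0.5 µM arrays for 73, where 23.6% of all probes had that order, and the median difference was 0.30, against 0 over all probes; the 1 µM arrays had been chosen to be high. In limma 3 rose between the doses, where 0.231% of all probes were called higher, and 0 fell, where 0.0895% were called lower. STAT4 was 1.91-fold higher at 1 µM than at 0.5 µM (adjusted p = 0.0345), PPP2R2B 1.70-fold (adjusted p = 0.0342) and TUBB2A 1.85-fold (adjusted p = 0.0308). All 3 calls were lost when any 1 of the 6 arrays of TR1, with or without SAHA, was left out (adjusted p up to 0.30).

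The 300-base windows around the annotated start of these 3 genes are shown because they alone were called between the doses. They are from RefSeq on GRCh38.p14, 5′ to 3′ on the gene's own strand: STAT4 at chr2:191151547-191151846 (minus strand), PPP2R2B at chr5:147055912-147056211 (minus strand) and TUBB2A at chr6:3157495-3157794 (minus strand). Capitals mark matches, on either strand, to 9 short motifs: the GC box (GGGCGG), the CCAAT box, the TATA box (TATAAA), AP-1 (TGANTCA), CRE (TGACGTCA), the interferon response element, the NF-kB site, an E-box (CAGGTG) and an ETS site (GGAAGT).
STAT4: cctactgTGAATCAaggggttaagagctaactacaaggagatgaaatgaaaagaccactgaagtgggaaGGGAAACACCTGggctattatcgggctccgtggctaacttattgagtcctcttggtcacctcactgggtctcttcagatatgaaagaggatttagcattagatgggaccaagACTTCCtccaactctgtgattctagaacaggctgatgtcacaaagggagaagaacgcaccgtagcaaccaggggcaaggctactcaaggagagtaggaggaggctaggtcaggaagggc
PPP2R2B: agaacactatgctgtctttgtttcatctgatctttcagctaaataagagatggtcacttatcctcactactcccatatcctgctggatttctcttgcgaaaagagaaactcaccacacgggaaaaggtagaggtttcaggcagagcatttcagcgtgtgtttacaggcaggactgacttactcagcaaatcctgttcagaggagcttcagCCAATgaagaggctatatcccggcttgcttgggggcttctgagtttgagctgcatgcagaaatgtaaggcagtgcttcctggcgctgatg
TUBB2A: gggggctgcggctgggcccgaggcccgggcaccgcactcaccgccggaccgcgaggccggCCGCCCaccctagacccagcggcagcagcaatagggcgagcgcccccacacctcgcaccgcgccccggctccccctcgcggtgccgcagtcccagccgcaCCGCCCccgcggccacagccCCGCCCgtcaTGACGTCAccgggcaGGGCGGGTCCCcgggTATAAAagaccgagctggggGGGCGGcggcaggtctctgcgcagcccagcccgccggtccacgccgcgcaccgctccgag

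TUBB2A had 5 GC boxes, 1 TATA box, 1 CRE and 1 NF-kB match, which overlaps a GC box, in a window of 79% G and C with 41 CpG. STAT4 had 1 AP-1, 1 NF-kB, 1 E-box and 1 ETS match at 49% G and C, the NF-kB and E-box matches overlapping, and PPP2R2B had 1 CCAAT box at 47%. The GC box was found in 67.8% of the 9015 windows of genes kept by the filter, CCAAT in 37.3%, NF-kB in 30.3%, ETS in 27.7%, the E-box in 18.6%, the TATA box in 6.0%, AP-1 in 4.59%, CRE in 3.19% and the interferon element in 2.81%. A match is a run of letters, not a site shown to be bound, and no motif was shared by all 3 windows.

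For contrast the windows of GIMAP4 at chr7:150567140-150567439 (plus strand), FBLN2 at chr3:13548875-13549174 (plus strand) and ID1 at chr20:31605039-31605338 (plus strand) are given, the 3 named members with the largest called shortfalls from WT at 1 µM (3.86-, 2.86- and 2.08-fold).
GIMAP4: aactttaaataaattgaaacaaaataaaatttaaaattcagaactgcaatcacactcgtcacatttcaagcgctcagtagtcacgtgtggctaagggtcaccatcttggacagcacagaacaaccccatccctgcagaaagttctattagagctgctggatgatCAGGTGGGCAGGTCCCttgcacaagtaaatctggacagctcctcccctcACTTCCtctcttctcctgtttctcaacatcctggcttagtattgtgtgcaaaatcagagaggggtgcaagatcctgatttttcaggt
FBLN2: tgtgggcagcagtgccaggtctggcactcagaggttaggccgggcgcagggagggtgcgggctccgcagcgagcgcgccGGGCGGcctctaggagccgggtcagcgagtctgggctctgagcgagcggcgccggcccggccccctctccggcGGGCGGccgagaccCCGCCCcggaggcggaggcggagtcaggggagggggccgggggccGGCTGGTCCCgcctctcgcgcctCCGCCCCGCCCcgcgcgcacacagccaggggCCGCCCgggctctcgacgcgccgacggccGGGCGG
ID1: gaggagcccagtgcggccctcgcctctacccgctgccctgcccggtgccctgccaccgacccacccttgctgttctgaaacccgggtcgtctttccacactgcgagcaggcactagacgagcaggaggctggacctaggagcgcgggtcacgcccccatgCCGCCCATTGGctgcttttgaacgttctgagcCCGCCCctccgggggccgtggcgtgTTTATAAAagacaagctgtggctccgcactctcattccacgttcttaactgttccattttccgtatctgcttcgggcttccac

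FBLN2 had 7 GC boxes, 2 of them overlapping, and 1 NF-kB match in a window of 81% G and C with 43 CpG. ID1 had 2 GC boxes, 1 CCAAT box and 2 overlapping TATA matches that lie on opposite strands, at 62.7%. GIMAP4 had 1 NF-kB, 1 E-box and 1 ETS match at 44% with 3 CpG. A window was at hand for 66 of the 83 member genes (79.5%), under the 80% set for such a check, so a comparison of motif shares or base composition between the members and other genes is void and was not made.

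Of 21 other probes of the member genes, which the choice had not kept, 14 in 11 genes were kept by the filter. In limma 3 of the 14 were lower in untreated TR1 than in WT (ASMTL, RUNX3 and STOM), where 3.71% of all probes were, and 0 were higher, with a median difference of -0.20 and 12 of 14 below 0. At 1 µM 7 of the 14 were called higher than in untreated TR1, where 12.6% of all probes were, and 0 lower, with a median of 0.42; at 0.5 µM 0 were called, with a median of 0.22. All 3 contrasts use the untreated TR1 arrays. The second probe of ASMTL read 5.74 and 6.02 in untreated TR1, 5.76 and 5.91 at 0.5 µM, 6.37 and 6.31 at 1 µM, and 6.76 and 6.93 in WT, an order like that of its member probe. The second probe of RUNX3 was also lower in untreated TR1 than in WT (difference -0.48, adjusted p = 0.0304), but at 1 µM it was not called against untreated TR1 (0.14, adjusted p = 0.366) and was called below WT (-0.34, adjusted p = 0.0376), where the member probe was not. The second probe of ID1 was dim and not detected in untreated TR1 or in WT. Both arrays of each dose detected it, at 5.22 and 5.15 (0.5 µM) and 5.56 and 5.49 (1 µM). At 1 µM it was called higher than in untreated TR1 (0.52, adjusted p = 0.00932). It was also called above WT there (0.44, adjusted p = 0.0138), where the member probe was called below WT. Probes of TUB, PTK2 and LY9 that were not members were dim and showed differences between untreated TR1 and WT of -0.10 to 0.06. Some bright probes also departed from the members. A second probe of CHMP2A, a subunit of the ESCRT-III membrane complex, read 8.65 and 8.50 in untreated TR1. It read 8.61 and 8.46 at 0.5 µM, 8.55 and 8.38 at 1 µM, and 8.86 and 8.46 in WT, so its groups overlapped. The member probe of CHMP2A read 7.27 and 7.11 in untreated TR1 and 7.94 and 8.03 in WT. The brightest CHMP2A probe, also not a member, read 10.34 and 10.37 in untreated TR1 and 10.65 and 10.90 in WT. With SAHA it read 10.62 and 10.69 at 0.5 µM and 10.71 and 10.77 at 1 µM. Its untreated TR1 arrays were the lowest, as in the member probe. At 1 µM it was called higher than in untreated TR1 (0.38, adjusted p = 0.0363). Between untreated TR1 and WT it was not called (-0.42, adjusted p = 0.0579). The second probe of CDK1, brighter than the member probe, read 11.09 and 11.29 in untreated TR1, 11.41 and 11.64 at 0.5 µM, 11.81 and 12.0 at 1 µM, and 11.52 and 11.35 in WT. It was not called between untreated TR1 and WT (difference -0.24, adjusted p = 0.311) and was called above WT at 1 µM (0.47, adjusted p = 0.0269). Like the member probe, it was called higher at 1 µM than in untreated TR1 (0.71, adjusted p = 0.00649).

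Of 27 pathway lists, 9 held 1 or 2 member probes and 18 held none. The members were 0.679% of all probes kept. On the 9 lists with a member the share ran from 2.22% (T cell receptor signalling) to 20% (metallothioneins, MT3 as 1 of 5). It was 8.33% for genes often raised by histone deacetylase inhibitors. The lists are short, with at most 45 kept probes, so 1 member alone lifts a list above 0.679%. These shares are a description with no test, and nothing is read from them. For the counts below, 528 of the 13407 probes kept were called higher and 497 lower in untreated TR1 than in WT. At 1 µM 1694 were called higher and 1698 lower than in untreated TR1. Of the 24 kept probes of genes often raised by histone deacetylase inhibitors, 2 were members (SAT1 and TUBB2A); on this list 13 probes rose and 0 fell at 1 µM against untreated TR1, with a median of 0.35, while in untreated TR1 0 were higher and 2 lower than in WT, with a median of 0.02. Of the 23 kept probes of cholesterol synthesis, 1 was a member (HMGCS1); 1 was higher and 3 lower in untreated TR1 than in WT (median -0.19), and 5 rose and 3 fell at 1 µM (median 0.07). MSMO1, a sterol demethylase with 2 member probes, was not on that list, and neither of its probes was called at 0.5 µM against untreated TR1 (limma adjusted p = 0.127 and 0.219); it is named after its values were seen. Of the 29 kept probes of T cell transcription factors, 2 were members (ID3 and RUNX3), and in untreated TR1 7 were higher and 3 lower than in WT. Of the 45 kept probes of T cell receptor signalling, THEMIS was the 1 member, and at 1 µM 4 rose and 13 fell against untreated TR1. On the list of TRAIL death receptor signalling (13 kept probes) no probe was a member; 2 were higher and 1 lower in untreated TR1 than in WT, and 3 rose and 2 fell at 1 µM.

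No member gene lay on chromosome 18, which held 1.31% of kept genes. Chromosome 1 held 13 of the 83 (15.7%, against 10.1% of kept genes), chromosome 4 held 6 (7.23%, against 3.28%) and chromosome 17 held 1 (1.2%, against 6.11%), which is a description with no test. Just inside the limit on untreated TR1 against WT were PPP4R4 and KIAA0513 at -0.508 and a probe with no symbol at -0.508, on the scale of the choice, and just outside were MATCAP2, NCAPG and C4orf33 at -0.497, -0.494 and -0.487. Just inside the limit on 1 µM against untreated TR1 were SEPTIN11 at 0.403, AIF1L at 0.404 and GIMAP4 at 0.4045, and just outside were ENHO at 0.398 and COBL and PACSIN1 at 0.395.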

How the data were processed

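The deposited table holds, per the file headers, a probe intensity on a linear scale and a detection p-value for each of 8 arrays, and it is not normalized. Its columns carry a group and a letter, so they were assigned to groups and not to single samples. The series matrix, also deposited by the authors, holds intensity values whose order on each array is that of 1 signal column and whose medians are equal (99.1 on every array). These are the marks of quantile-normalized signals on a linear scale, and they were used as an alternative. The submitters' processing notes name limma, with no version; the program that extracted the signals is not given in the sources used here.

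Probe names came from the platform annotation and RefSeq: of 22184 probes 19715 had 1 symbol, 0 had several and 2469 had none, and 4 symbols were updated. The choice of members used log2 of the deposited signals with quantile normalization. All tests used limma 3.58.1 in R 4.3.3: neqc (offset 16), probes with detection p below 0.05 on at least 2 of 8 arrays (13407 probes), 1 mean per group over all 8 arrays (4 residual and 4.22 prior degrees of freedom), two-sided tests, and Benjamini-Hochberg adjustment over all probes kept. The fit was tested on simulated data with known changes at 0.5 µM. It called 44.8% of the probes given a log2 change of 0.5, 86.6% of those given 1 and 100% of those given 2. A change near 0.5 was thus often missed. With 2 arrays per group, p-values measure only the spread between such duplicates, and their number limits the precision. An "at least" fold sets the brighter group against the lowest detected signal or the dim probe's own value, whichever is higher.

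Members, gene lists and role groups were chosen with earlier results of these data known. Named genes were the members with the 10 largest changes against WT and at 1 µM, the 6 largest and 3 smallest at 0.5 µM, the 5 called farthest above and below WT, and members on a gene list; further names complete a group or a count and were added after their values were seen. No column belonged to another series (0). The labels do not say that a replicate number marks a shared batch or day. Deviations of replicate 1 correlated positively in all 6 pairs of groups (0.092 to 0.322, above 0.1 in 5), which with 2 numbers does not settle whether the numbers pair the samples, so the fits have no block.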

Additional observations from a re-analysis of the deposited data

How the results depend on the processing

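Counts of members moved with the settings, and so did counts over all probes. Of all probes kept, 497 were called lower in untreated TR1 than in WT, or 151 with only the 4 arrays compared. Between the doses 31 were called higher, or 107 without background correction, 56 with median scaling and 46 with the stricter filter. That count was 132 with a variance trend and robust variances, 1 with only the 4 arrays compared and 345 with the replicate block by number. The counts that follow are of members. The choice itself kept 175 probes on background-corrected values, 52 with both limits raised by 0.1, 164 with both lowered by 0.1, and 84 to 138 without 1 array. Called lower in untreated TR1 than in WT were 83, or 47 with only the 4 arrays compared and 42 to 82 without 1 array. Called higher at 0.5 µM than in untreated TR1 were 52, or 26 to 59 without 1 array. Against WT at 0.5 µM, 6 were higher, or 3 with only the 4 arrays compared and 1 to 8 without 1 array, and 25 were lower, or 9 to 26 without 1 array. Between the doses 3 were higher, or 13 without background correction, 7 with median scaling, 6 with the stricter filter on dim probes, 11 with a variance trend and robust variances, 0 with only the 4 arrays compared, 13 on the series matrix values and 0 to 3 without 1 array; no setting called a member lower. A replicate block by array letter gave 5 between the doses, and a replicate block by number, which also changes the input to the series matrix values, gave 24 there (13 on those values without the block) and 38 lower than WT at 0.5 µM (31 without it); the labels do not settle whether the numbers pair the samples. In 0.5 µM minus untreated TR1, UQCRH (-0.08) was 0.05 without TR1 array B, 0.07 without 0.5 µM array A and -0.22 to 0.07 over all fits without 1 array, and ECI2 (0.08) was -0.01 with median scaling, -0.07 without TR1 array A and -0.07 to 0.23 over the fits without 1 array; none of these was called. Counts higher at 1 µM than in untreated TR1 (87) and on either side of WT at 1 µM (18 and 11) stayed within 1.5 times under every alternative run. The cause of the shifts was not tested; fits with fewer arrays have fewer degrees of freedom. Probes near background limit what can be said of PPP2R2B, COBLL1 and STOX2 in untreated TR1, and of ADAM19, IGF2BP2, MT3 and JAZF1, which 1 of 2 arrays detected there.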

Other observations

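Further members were looked at after their values were seen. PTK2 (focal adhesion kinase) read 9.63 and 9.70 in untreated TR1, 10.67 and 10.72 at 0.5 µM, 10.92 and 10.82 at 1 µM, and 10.21 and 10.26 in WT, and CNN3, an actin-binding calponin, read 8.16 and 8.16 in untreated TR1, 9.63 and 9.80 at 0.5 µM, 9.58 and 9.65 at 1 µM, and 9.32 and 9.32 in WT. In both genes the untreated TR1 arrays were the lowest and all arrays with SAHA were above both WT arrays. PTK2 was 1.38-fold above WT at 0.5 µM (limma adjusted p = 0.012; up to 0.0765 and not called without either 0.5 µM array), and CNN3 was 1.32-fold above it (adjusted p = 0.0253; up to 0.157 and not called without either WT array or either 0.5 µM array).

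FSTL1, a secreted glycoprotein related to follistatin, read 6.52 and 6.69 in untreated TR1, 7.63 and 7.54 at 0.5 µM, 7.44 and 7.45 at 1 µM, and 8.21 and 8.22 in WT. Its arrays at 0.5 µM were above those at 1 µM, a difference of -0.14 between the doses that was not called (limma adjusted p = 0.552), and both doses were below WT, by 1.55-fold at 0.5 µM (adjusted p = 0.00445) and 1.70-fold at 1 µM (adjusted p = 0.000945). SERPINE2, a secreted inhibitor of serine proteases, read 8.84 and 8.95 in untreated TR1, 10.05 and 10.14 at 0.5 µM, 10.51 and 10.57 at 1 µM, and 9.87 and 9.78 in WT, so that FSTL1 ended below WT and SERPINE2 above it, by 1.64-fold at 1 µM (adjusted p = 0.00123).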
